A study of Zea mays with 9 samples.

Results

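The 9 genes described here are maize genes whose deposited descriptions name parts of the plant circadian clock. Of them, 3 are described as LATE ELONGATED HYPOCOTYL (LHY), 1 as REVEILLE 2, and 5 as pseudo-response regulators (PRR37 for 2 of them, and PRR73, PRR95 and PRR1). They were taken as a list of gene identifiers from a count table of 39755 gene rows, and all 9 passed the filter on low counts that left 23077 genes for testing. A description names the most similar described protein, of petunia or Arabidopsis for the LHY and REVEILLE 2 rows and of rice for the PRR rows, and does not name the maize gene itself. A further 10 rows carry a PRR description and are not among the 9. Of these, 4 were tested and are given beside the related genes, and 6 had at most 4 counts in total over all libraries.

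The plant clock is a loop of transcription factors that repress each other in turn through the day. In Arabidopsis, LHY is a MYB-type factor made around dawn that holds down genes of the evening, among them the gene of PRR1, which is also called TOC1. The other PRR proteins are made in sequence during the day and repress LHY and its relatives, and the levels of these transcripts vary with the hour of the day.

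Messenger RNA was counted in leaf 2 of seedlings of the maize cultivar Golden Bantam, grown for 8 days. The leaves were cut, and a solution was drawn into them under a vacuum of 60 mbar. It held 2 mM of the defence hormone salicylic acid (SA), 5 µM of Zip1, a maize immune signalling peptide, or, for the mock group, water with 0.1% dimethyl sulfoxide. Sampling followed at 6 h, and each group has 3 libraries, numbered 1 to 3 in each group's titles. The labels give neither the hour of the day at sampling, nor what a replicate number stands for, nor whether the libraries of a group came from separate plants, nor whether the SA and Zip1 solutions held the solvent. The p-values below therefore measure the spread between these libraries, which may be technical.

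Total counts were 28840453 to 38794412 a library. Marker genes of mesophyll, the outer photosynthetic cells of a C4 leaf, made up 5.30% to 6.50% of the counts of a library, and those of the bundle sheath 1.29% to 2.21%. Of 28 genes described as endosperm zeins or pollen proteins, 26 had no count, and the 28 together had 10 counts over the 9 libraries. Levels are given as counts scaled to a common library size (normalised counts). Levels of different genes are compared only per kilobase of gene length. In whole leaf tissue, fewer cells of a type and less RNA per cell cannot be told apart.

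In the mock leaves, the 3 LHY-described genes and PRR73 were at the top of the 9 genes per kilobase. The LHY-described gene Zm00001eb415770 averaged 3224 ± 1539 normalised counts per kilobase (SD, n = 3), PRR73 3004 ± 576, the LHY-described Zm00001eb415760 2797 ± 1320 and the LHY-described Zm00001eb172450 2682 ± 1492. Each of these 4 overlapped the next in that order. PRR95 followed at 1035 ± 218, and its highest mock library, at 1286, lay above the lowest one of Zm00001eb172450, at 1177. PRR1 came next at 508 ± 63.6 and REVEILLE 2 after it at 99.9 ± 37.4, with no overlap between PRR95, PRR1, REVEILLE 2 and the next gene. The PRR37 genes were lowest, at 48.1 ± 29.6 for the gene on chromosome 7 and 33.1 ± 16.4 for the gene on chromosome 2, and their ranges overlapped.

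Among the morning-type genes, the LHY gene Zm00001eb172450 lies on chromosome 4, from 34451947 to 34485749 on the plus strand (the deposited table names no genome build), and has a gene length of 3544 bases. It spans 2 minus-strand genes, which had 1 count in total over the 9 libraries. The mock libraries 1, 2 and 3 had 14741, 4169.9 and 9609 normalised counts of it, the SA libraries 21987, 7606 and 15578, and the Zip1 libraries 10194, 4267 and 9622. The library with the number 2 was the lowest of each treatment and the library with the number 1 the highest, and the treatments overlapped.

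The mean of this gene was 9507 ± 5286 normalised counts in mock leaves, 15057 ± 7204 with SA and 8028 ± 3269 with Zip1 (SD, n = 3 each). Its SA against mock log2 fold change (log2 difference in what follows) was 0.66 (SE 0.51, adjusted p = 0.551, edgeR quasi-likelihood test with Benjamini-Hochberg adjustment over all tested genes), so it was not called at an adjusted p under 0.05. SA libraries deviate from their group mean together with the mock libraries of the same number, and with that number as a block the difference was 0.71 (SE 0.16, adjusted p = 0.0219, edgeR), which was called. In that fit 9.62% of all tested genes were called, and Zm00001eb172450 was the only one of the 9. SA exceeded mock in each pair, by 1.49-, 1.82- and 1.62-fold for the numbers 1, 2 and 3. It also did in 3 of 3 pairs for Zm00001eb415770, Zm00001eb415760 and PRR95, which were not called. Zip1 against mock was -0.24 (SE 0.51, adjusted p = 0.918, edgeR), and the Zip1 libraries held 0.692 and 1.02 times the mock value for the numbers 1 and 2 and stood at 9622 against 9609 for the number 3.

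The other LHY-described rows, Zm00001eb415770 and Zm00001eb415760, are neighbours on the minus strand of chromosome 10. The former runs from 79580512 to 79580995 (484 bases) and the latter from 79579387 to 79580356 (880 bases of gene length), with 155 bases between them. Reads of a single transcript may be divided between the 2 rows, so their separate levels are uncertain. Their ratio per kilobase lay between 0.815 and 1.31 over the 9 libraries.

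The upstream row, Zm00001eb415770, had 2326, 838 and 1517 normalised counts in mock libraries 1, 2 and 3, then 2761, 1327 and 2263 in SA and 2032, 1496 and 2809.8 in Zip1. For the downstream row, Zm00001eb415760, the values were 3629, 1307 and 2447 in mock, 3824, 2297 and 5048 in SA, and 3249, 2447 and 4011.5 in Zip1. In every treatment the library with the number 2 was the lowest of both rows. Against mock, the upstream row had a log2 difference of 0.44 (SE 0.38) in SA and 0.44 (SE 0.38) in Zip1, and the downstream row 0.60 (SE 0.37) and 0.39 (SE 0.37). The adjusted p of these 4 differences ran from 0.445 to 0.782 (edgeR), and all groups overlapped.

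REVEILLE 2, Zm00001eb228670, encodes a MYB-like factor of the family of LHY and lies on chromosome 5, from 66039016 to 66042111 on the minus strand. Its normalised counts were 331, 191 and 172 in mock, 701, 140.4 and 410.1 in SA, and 316, 161 and 243 in Zip1. SA libraries 1 and 3 were the highest of all, while SA library 2 was the lowest of all 9. The SA against mock log2 fold change was 0.85 (SE 0.50, adjusted p = 0.415, edgeR), but 0.24 without SA 1 and 1.29 without SA 2. Zip1 against mock was 0.05 (SE 0.50, adjusted p = 0.983, edgeR).

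**Figure D1:**
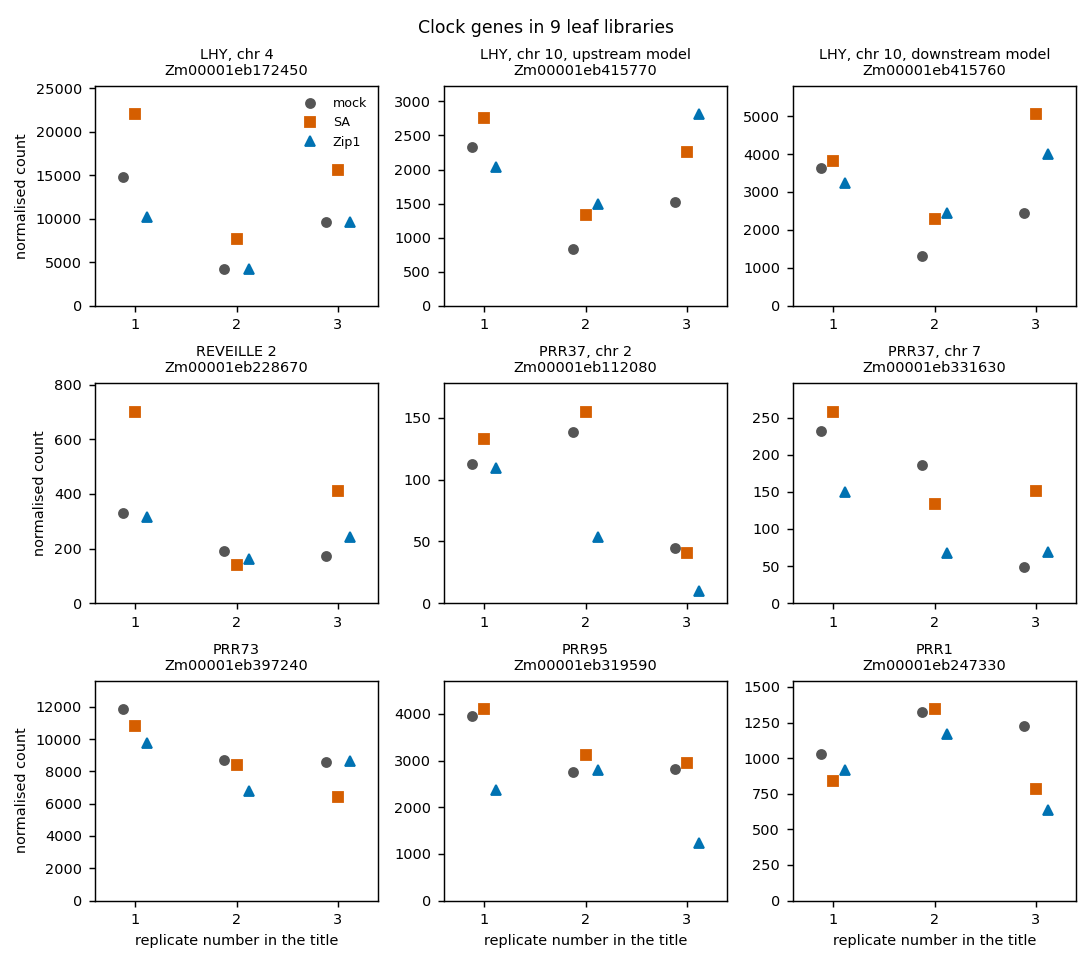
Normalised counts (vertical axes, each starting at 0) of the 9 clock genes by the replicate number in the library's title (horizontal axes), with 1 point a library for mock, SA and Zip1. The LHY panels show the libraries with the number 2 below the others of their treatment, down to 4169.9 for the gene on chromosome 4, and the PRR1 panel shows them on top of theirs.

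PRR37 in rice delays flowering in long days. The PRR37-described gene on chromosome 2, Zm00001eb112080 (225460449 to 225498202, plus strand), had 113, 139 and 44.3 normalised counts in mock, 133, 155 and 40.9 in SA, and 109, 53.2 and 9.51 in Zip1. The library with the number 3 was the lowest of each treatment. The PRR37-described gene on chromosome 7, Zm00001eb331630 (183947136 to 183980571, plus strand), had 233, 186 and 48.2 in mock, 258, 134 and 151 in SA, and 150.3, 67.2 and 68.5 in Zip1. Its table entry lists a CCT domain, the part with which PRR proteins reach DNA, and no receiver domain.

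Against mock, the PRR37 genes had log2 fold changes of 0.16 (SE 0.75) and 0.22 (SE 0.54) in SA, for chromosomes 2 and 7 in that order. In Zip1 they were -0.79 (SE 0.76, adjusted p = 0.789) and -0.71 (SE 0.55, adjusted p = 0.712, edgeR). The value of Zm00001eb112080 was -1.65 without Zip1 1 and -0.28 without Zip1 3, and that of Zm00001eb331630 -1.19 without Zip1 1 and -0.30 without mock 1. Zip1 libraries of Zm00001eb112080 lay below the mock library of the same number in 3 of 3 pairs, and those of Zm00001eb331630 in 2 of 3. Groups of both genes overlapped. These were the genes with the fewest counts of the 9, and their standard errors were the widest.

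PRR73, Zm00001eb397240, is a daytime regulator in rice and lies on chromosome 9, from 144681430 to 144689824 on the plus strand. It had 11850.4, 8689 and 8573 normalised counts in mock, 10798, 8416 and 6427 in SA, and 9775, 6758 and 8665 in Zip1. The library with the number 1 was the highest of each treatment, and the treatments overlapped. Means were 9704 ± 1859 in mock leaves, 8547 ± 2188 with SA and 8399 ± 1526 with Zip1 (SD, n = 3 each), with log2 fold changes against mock of -0.18 (SE 0.23) and -0.21 (SE 0.23) and adjusted p = 0.749 and 0.825 (edgeR).

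PRR95, Zm00001eb319590, is the rice relative of Arabidopsis PRR5 and PRR9, repressors of the LHY family, and lies on chromosome 7, from 149275677 to 149281853 on the minus strand. Its normalised counts were 3946, 2757 and 2823 in mock, 4098, 3115 and 2954 in SA, and 2376, 2804 and 1233 in Zip1. All 3 Zip1 libraries lay below all 3 SA libraries, and Zip1 libraries 1 and 3 lay below every mock library. Zip1 against SA was a log2 difference of -0.66 (SE 0.28, unadjusted p = 0.0375, adjusted p = 0.248, edgeR), which did not pass the threshold. Zip1 against mock was -0.57 (SE 0.28, adjusted p = 0.486, edgeR), and SA against mock was 0.09 (SE 0.28, adjusted p = 0.906, edgeR).

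The 3 further PRR95-described rows that were tested, Zm00001eb092230, Zm00001eb103490 and Zm00001eb198960, had Zip1 against mock log2 fold changes of -0.38 (SE 0.15), -0.70 (SE 0.26) and -0.37 (SE 0.20), with adjusted p = 0.326, 0.287 and 0.529 (edgeR). None of the 4 PRR95 rows passed the threshold in a treatment comparison, and their unadjusted p for Zip1 against mock was 0.0669 for Zm00001eb319590 and 0.0251, 0.0196 and 0.0855 for the others in that order.

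PRR1, Zm00001eb247330, corresponds by its description to the evening regulator TOC1 and lies on chromosome 5, from 189096151 to 189099239 on the plus strand. It had 1032, 1326 and 1227 normalised counts in mock, 839, 1343 and 784 in SA, and 918, 1171 and 638 in Zip1. The library with the number 2 was the highest of each treatment, opposite to the LHY genes, and the treatments overlapped. The log2 fold change against mock was -0.27 (SE 0.25, adjusted p = 0.637) in SA and -0.39 (SE 0.25, adjusted p = 0.633) in Zip1 (edgeR). The further PRR1-described row, Zm00001eb184870, had -0.50 (SE 0.31, adjusted p = 0.442) and -0.38 (SE 0.31, adjusted p = 0.741, edgeR). Its libraries 1, 2 and 3 had 286, 493 and 358 normalised counts in mock and 195, 385 and 221 in SA. In Zip1 they had 371, 283 and 223, so there the library with the number 1 was the highest.

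Counted over the 9 genes, no treatment comparison gave a call in edgeR without the block. SA against mock called 0 of 9, where 6.22% of all tested genes were called, and 0 of 9 had an unadjusted p under 0.05, against 18.9% of all genes. Zip1 against mock called 0 of 9 against 0.884% of all genes, and 0 of 9 had an unadjusted p under 0.05, against 11.5%. Zip1 against SA called 0 of 9 against 4.11%, with 1 of 9, PRR95, under an unadjusted p of 0.05, against 17.4%. The DESeq2 Wald test called 0 of 9 in each of the 3, where it called 10.6%, 4.03% and 8.83% of all genes. The unadjusted counts above depend on leaving the pairing out. With the replicate number as a block, 3 of 9 had an unadjusted p under 0.05 (edgeR) between SA and mock. For Zip1 the blocked fit gave 4 of 9 when compared with mock, and 4 of 9 when compared with SA. A matching share of all genes is not given for the blocked fits, so these counts have no background.

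SA and Zip1 share their mock libraries, so their values are set side by side only. Zip1 against SA in turn shares its SA libraries with SA against mock, so a gene called in both has no separate support. The median log2 fold change of the 9 genes was 0.22 in SA against mock (all tested genes -0.04) and -0.24 in Zip1 against mock (all tested genes -0.01). In Zip1 against SA it was -0.66 (all tested genes 0.01), and all 9 estimates were below 0, from -0.94 for the PRR37 gene on chromosome 2 to -0.002 for the upstream LHY row on chromosome 10. The estimate of that row turned to 0.040 with the replicate block, and leaving out a single library turned the sign of 4 of the 9 (Zm00001eb415770, up to 0.24, Zm00001eb415760, up to 0.081, Zm00001eb397240, up to 0.18, and Zm00001eb247330, up to 0.14). The LHY gene on chromosome 4 had -0.91 in that comparison (SE 0.51, adjusted p = 0.416, edgeR), REVEILLE 2 -0.80 (SE 0.50, adjusted p = 0.475) and the PRR37 gene on chromosome 7 -0.92 (SE 0.55, adjusted p = 0.438). With the replicate block, this LHY gene had -0.87 (adjusted p = 0.0128, edgeR) and was the only one of the 9 called, where 6.73% of all genes were called. Of the 9, PRR95 alone had groups that did not overlap between Zip1 and SA, against 23.5% of all genes, and none of the 9 had such groups in SA against mock (23.9% of all genes) or Zip1 against mock (17.7%).

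**Figure D2:**
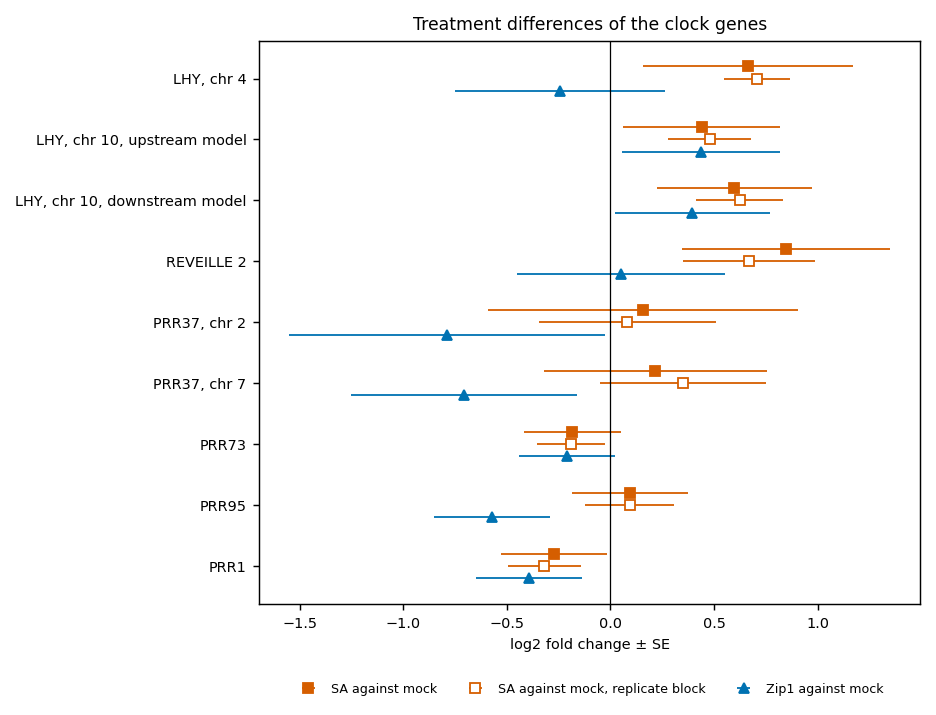
Log2 fold change (horizontal axis) of each clock gene against mock for SA (filled squares), SA with the replicate number as a block (open squares) and Zip1 (triangles), from edgeR, with bars of 1 standard error. The block narrows the bar of the LHY gene on chromosome 4 from 0.51 to 0.16 at nearly the same estimate, 0.66 and 0.71.

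Libraries that carry the same replicate number were then compared across treatments, with the treatment as a term in the model. Of the sum of squares of log2 CPM (counts scaled by library size) over the 9 libraries, the replicate number took 72.9% for the LHY gene on chromosome 4, the treatment 25% and the rest 2.12%. For the upstream and downstream rows on chromosome 10, the replicate number took 65.7% and 59.5%, and for REVEILLE 2 61.7%. Among the PRR genes it took 66.9% and 50.6% for PRR37 on chromosomes 2 and 7, 63.7% for PRR73 and 51.9% for PRR1.

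PRR95 was the exception, with 30.5% for the replicate number and 46.7% for the treatment. The median share of the replicate number was 61.7% over the 9 genes and 24.4% over all tested genes, whose quartiles were 10.6% and 43.0%. The median share of the treatment was 24.4% over the 9 genes and 33.5% over all tested genes. The share of PRR95 alone among the 9 fell below the upper quartile of all genes. The 9 genes were chosen with earlier results of these data known. Neither these shares nor the tallies below can therefore test whether they differ from other genes.

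**Figure D3:**
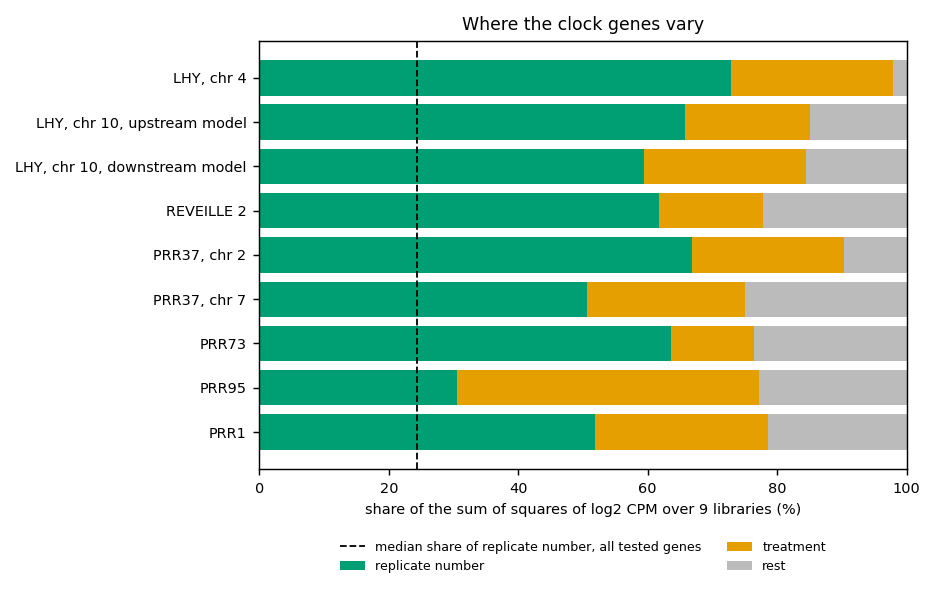
Share of the sum of squares of log2 CPM over 9 libraries (horizontal axis, percent) taken by the replicate number, the treatment and the rest, 1 bar a clock gene. The dashed line marks 24.4%, the median share of the replicate number over all tested genes, and every bar's first segment ends to its right, from 30.5% for PRR95 to 72.9% for the LHY gene on chromosome 4.

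A joint edgeR test of the replicate numbers called 1 of the 9, the LHY gene on chromosome 4 (Zm00001eb172450, adjusted p = 0.0344, rank 7 of 23077 genes by p), where 0.0823% of all genes, 19, were called. Of the 9 genes, 8 had an unadjusted p under 0.05, against 15.7% of all genes. Both rows on chromosome 10 are among these 8. They may divide a single transcript, yet count as separate genes in every tally over the 9. The 4 further PRR rows that were tested all had an unadjusted p above 0.05 in this joint test (edgeR). It was 0.518, 0.0621 and 0.0926 for the PRR95-described Zm00001eb092230, Zm00001eb103490 and Zm00001eb198960, and 0.146 for the PRR1-described Zm00001eb184870. DESeq2 called 5 of the 9, where it called 5.30% of all genes. The edgeR call of the LHY gene was lost when a single library was left out in 6 of 9 cases, with an adjusted p of 0.158 without mock 1, 0.127 without SA 2, 0.0783 without mock 2, 0.0704 without Zip1 3, 0.0684 without SA 1 and 0.0572 without mock 3. In those 6 fits, 1 to 20 of all genes were called.

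Libraries numbered 2 had less transcript of the LHY gene on chromosome 4 than those numbered 1. Its range was 4169.9 to 7606 normalised counts in the former and 10194 to 21987 in the latter. The log2 fold change was -1.54 (SE 0.16, adjusted p = 0.0215, edgeR), lower in 3 of 3 treatments, and this was the only call among the 9, where 0.091% of all genes were called. DESeq2 called 4 of the 9, against 2.26% of all genes. In edgeR, leaving out mock 1, mock 2, SA 1, SA 2 or Zip1 2 left 0 of the 9 called. Those fits called 2, 4, 6, 3 and 2 of all genes, in that order. Leaving out Zip1 1 gave 2 of 9, where 11 of all genes were called. The upstream and downstream rows on chromosome 10 had -1.01 (SE 0.20, adjusted p = 0.119) and -0.89 (SE 0.21, adjusted p = 0.192), and REVEILLE 2 -1.32 (SE 0.32, adjusted p = 0.193).

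Neither these nor the PRR genes passed the threshold between the numbers 2 and 1. PRR1 had a log2 difference of 0.47 (SE 0.17, adjusted p = 0.311, edgeR), with every library numbered 2 above every library numbered 1. PRR73 had -0.44 (SE 0.17, adjusted p = 0.310), with every library numbered 2 below those numbered 1. In all, 6 of the 9 had an unadjusted p under 0.05, against 13.0% of all genes, and 6 of the 9 had ranges that did not overlap, against 14.9%.

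Between libraries numbered 3 and 1, edgeR called 0 of the 9, against 0.152% of all genes, and DESeq2 1 of the 9, against 3.53%. The estimates of largest size were those of the PRR37 genes. PRR37 on chromosome 2 had a log2 difference of -2.14 (SE 0.46, adjusted p = 0.105, edgeR), with 9.51 to 44.3 normalised counts against 109 to 133. PRR37 on chromosome 7 had -1.29 (SE 0.40, adjusted p = 0.204), PRR95 -0.61 (SE 0.21, adjusted p = 0.238), PRR73 -0.45 (SE 0.17, adjusted p = 0.252) and the LHY gene on chromosome 4 -0.40 (SE 0.16, adjusted p = 0.283). These 5 were the genes with an unadjusted p under 0.05, against 14.5% of all genes. Ranges did not overlap for PRR37 on chromosome 2 and PRR73, 2 of the 9, against 13.6% of all genes.

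Between the numbers 3 and 2, edgeR called 0 of the 9, against 0.00433% of all genes, and DESeq2 4 of the 9, against 2.60%. The LHY gene on chromosome 4 had a log2 difference of 1.14 (SE 0.16, adjusted p = 0.0712, edgeR), and the rows on chromosome 10 0.85 and 0.92 (adjusted p = 0.155 and 0.145). PRR37 on chromosome 2 had -1.92 (SE 0.45, adjusted p = 0.145) and PRR1 -0.58 (SE 0.18, adjusted p = 0.265). These 5 had an unadjusted p under 0.05, against 10.9% of all genes, and 4 of the 9 had ranges that did not overlap, against 11.1%. What the numbers stand for was not tested.

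**Figure D4:**
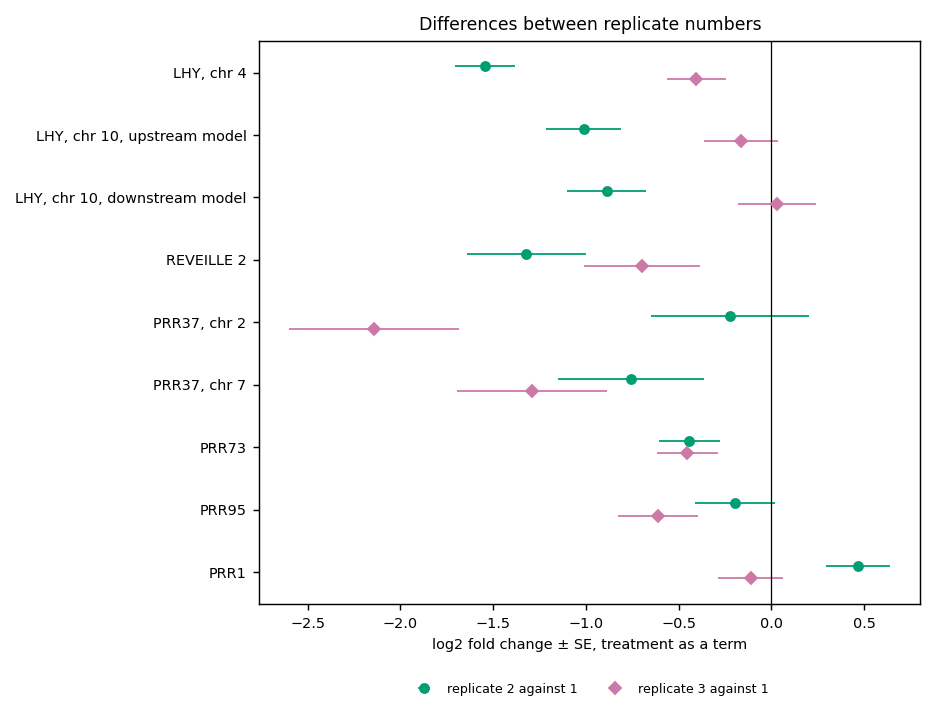
Log2 fold change (horizontal axis) of each clock gene between libraries that share a replicate number, 2 against 1 (circles) and 3 against 1 (diamonds), from edgeR with the treatment as a term and bars of 1 standard error. The LHY gene on chromosome 4 stands at -1.54 for 2 against 1, PRR1 at 0.47, and PRR37 on chromosome 2 at -2.14 for 3 against 1.

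The LHY gene on chromosome 4 and PRR1, which in Arabidopsis repress each other, had opposite extremes in the libraries numbered 2. Per kilobase, LHY over PRR1 was 9.48, 2.09 and 5.20 in mock libraries 1, 2 and 3. In the SA libraries it was 17.4, 3.76 and 13.2, and in the Zip1 libraries 7.37, 2.42 and 10. The libraries numbered 2, from 2.09 to 3.76, all lay below those numbered 1 (7.37 to 17.4) and those numbered 3 (5.20 to 13.2). This ratio was formed after the separate values were seen and carries no test. It leaves out the further PRR1-described row, Zm00001eb184870, whose highest Zip1 library was the number 1.

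**Figure D5:**
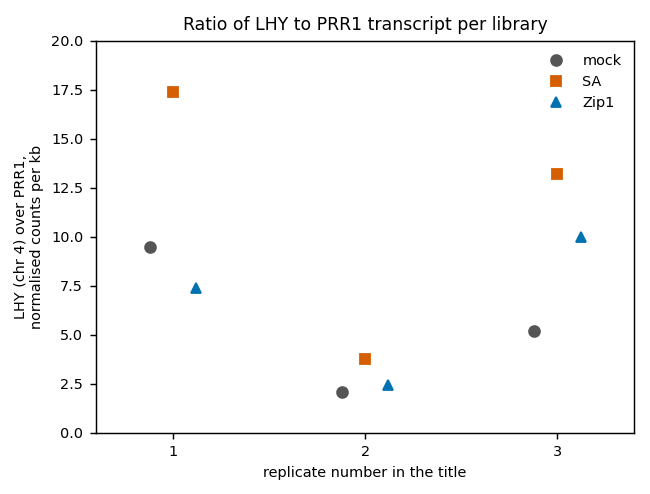
Ratio of the LHY gene on chromosome 4 to PRR1 in normalised counts per kilobase (vertical axis, from 0) by replicate number (horizontal axis), 1 point a library. The 3 libraries numbered 2 lie between 2.09 and 3.76, and the other 6 between 5.20 and 17.4.

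Other genes described as core clock parts, 48 rows that include the 10 further PRR rows, were mostly at a level that allowed a test, with 30 tested. In SA against mock 1 was higher and 0 lower, where 5.11% of all tested genes were called higher and 1.11% lower, with a median log2 fold change of 0.02. The gene that rose was REVEILLE 7 (Zm00001eb187450), a MYB-like factor of the LHY family, from 19.6 ± 12.1 normalised counts in mock to 161 ± 53.6 in SA (SD, n = 3 each), a log2 difference of 3.02 (SE 0.63, adjusted p = 0.0167, edgeR). Zip1 against mock called 0 of the 30 in edgeR, against 0.884% of all tested genes, with 6 of 30 at an unadjusted p under 0.05 (all genes 11.5%) and a median of -0.20. Zip1 against SA called 0 of the 30, against 4.11%, with 3 of 30 at an unadjusted p under 0.05 (all genes 17.4%).

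GIGANTEA is a large clock protein of the afternoon that steadies the F-box protein ZEITLUPE. The higher of the 2 GIGANTEA rows with the most counts, Zm00001eb337600, averaged 49542 ± 5798 normalised counts in mock leaves, 35341 ± 7737 with SA and 32101 ± 3160 with Zip1 (SD, n = 3 each). Zip1 against mock was a log2 difference of -0.63 (SE 0.21, adjusted p = 0.233, edgeR), short of the threshold. Between replicate numbers it had an adjusted p of 0.762 (edgeR), with a log2 difference of 0.01 (SE 0.20) for 2 against 1.

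Of 8 clock-associated F-box genes and their partners, all tested, 1 was lower in Zip1 than in SA, where 2.56% of all genes were called lower and 1.56% higher by edgeR. Against mock 0 of the 8 were called in SA (all genes 6.22%) or in Zip1 (0.884%), and 2 of 8 had an unadjusted p under 0.05 in each (all genes 18.9% and 11.5%). The gene called was Adagio-like protein 1 (Zm00001eb273260), a relative of ZEITLUPE, the light-sensing F-box protein that marks PRR1 for degradation in Arabidopsis. It averaged 803 ± 179.6 normalised counts in mock leaves, 1163 ± 243 with SA and 565 ± 116 with Zip1 (SD, n = 3 each), and the log2 fold change of Zip1 against SA was -1.04 (SE 0.23, adjusted p = 0.0289, edgeR).

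Of the rows whose descriptions name photoreceptors (phytochromes, cryptochromes, phototropins or UVR8), 27 of 41 were tested. SA against mock gave 0 higher and 2 lower, where 5.11% of all genes were called higher and 1.11% lower. In either direction, 2 of 27 were called, near the 6.22% of all genes, and 5 of 27 had an unadjusted p under 0.05 (all genes 18.9%). Cryptochrome-2 (Zm00001eb382070), a blue light receptor, fell by 0.76 on the log2 scale (SE 0.16, adjusted p = 0.0174, edgeR), from 1544 ± 246 to 914 ± 99.6 normalised counts (SD, n = 3 each). Phytochrome B (Zm00001eb396030), a red light receptor, fell by 0.73 (SE 0.19, adjusted p = 0.0442, edgeR), from 1233 ± 131 to 741 ± 17.1. In Zip1 they stood at 1564 ± 97.8 and 1538 ± 403, and both were higher in Zip1 than in SA (adjusted p = 0.0230 and 0.0120, edgeR), 2 of 27 where 1.56% of all genes were called higher. Both comparisons use the same SA libraries, so these calls are not independent of those against mock. Zip1 against mock called 0 of the 27, against 0.884% of all genes, with 2 of 27 at an unadjusted p under 0.05 (all genes 11.5%).

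Of genes described as outputs of the clock, 33 of 48 rows were tested, and 2 were higher in SA than in mock and 0 lower. The 2 of 33 called higher are near the background, 5.11% of all genes. CONSTANS-LIKE 13 (Zm00001eb016800), a B-box zinc finger protein, rose from 2917 ± 840.5 to 7917 ± 1244 normalised counts (log2 difference 1.44, SE 0.23, adjusted p = 0.00362, edgeR). Cyclic dof factor 2 (Zm00001eb128930), whose Arabidopsis relatives repress CONSTANS in the morning, rose from 115 ± 13.0 to 248 ± 10.1 (1.10, SE 0.25, adjusted p = 0.0221, edgeR). These 2 were also the 2 genes of the list called lower in Zip1 than in SA (2.56% of all genes were), at 3295 ± 585 and 91.3 ± 11.8 in Zip1. That comparison uses the same SA libraries, so its calls are not independent of those against mock. Zip1 against mock called 0 of the 33, against 0.884% of all genes, with 2 of 33 at an unadjusted p under 0.05 (all genes 11.5%).

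Light-harvesting proteins, whose genes follow the clock in many plants, gave 25 tested rows of 32 and 0 called in any comparison by edgeR. In SA against mock 1 of the 25 had an unadjusted p under 0.05 (all genes 18.9%), in Zip1 against mock 0 (11.5%), and in Zip1 against SA 1 (17.4%). Between replicate numbers 3 and 2 their median log2 fold change was -0.80 (all tested genes 0.01), with 18 of 25 at an unadjusted p under 0.05 (all genes 10.9%). Between 3 and 1 the median was -0.58, with 11 of 25 (all genes 14.5%), and between 2 and 1 it was 0.23, with 1 of 25 (all genes 13.0%). In the joint test of the replicate numbers, edgeR called none of the tested genes of these 5 lists, 30, 8, 27, 33 and 25 in the order given, where 0.0823% of all genes were called. Of the lists, 5, 5, 10, 12 and 15 genes had an unadjusted p under 0.05, against 15.7% of all genes.

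The genes whose log2 CPM followed the LHY gene on chromosome 4 (Zm00001eb172450) most closely over the 9 libraries, among 18089 genes, were Zm00001eb143670, described as BLISTER (Pearson r = 0.975), Zm00001eb045250, described as Myosin-3 (0.971), and Zm00001eb085380, with no protein entry (0.964). Those nearest to PRR73 (Zm00001eb397240) were Zm00001eb358910 and Zm00001eb190880, with no protein entry (0.992 and 0.985), and Zm00001eb055550, described as ILITYHIA (0.985). These values describe 9 shared libraries, and no test was made of them. Pearson r disregards the size of a change. In the order given, the genes nearest to LHY ran from 518 to 756, 3433 to 6237 and 2251 to 3747 normalised counts. The LHY gene itself ran from 4170 to 21987. Those nearest to PRR73 ran from 2100 to 6619, 535 to 1275 and 2259 to 4723, and PRR73 from 6427 to 11850. None of the 6 genes was called in the joint test of the replicate numbers (adjusted p from 0.135 to 0.373, edgeR).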

How the data were processed

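Poly-A RNA of 9 leaf libraries was sequenced, 3 for each of 3 groups, and groups were taken from the sample titles. The authors deposited raw read counts per gene, 1 column a library; 0 sample columns lacked a library. HISAT2 2.0.5, featureCounts 1.5.0-p3 and DESeq2 1.20.0 are named in the submitters' processing notes. The build of the genome and the strand setting of the counting are not given in the sources used here. The table held 39755 gene rows, of which 9125 had no count, and 1 empty line. Deposited FPKM values were not used, because the decimal point is missing from values of 1 or more; counts per gene length replaced them.

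Genes were filtered with filterByExpr, leaving 23077, scaled by TMM (factors 0.910 to 1.10) and tested with edgeR 4.0.16 in R 4.3.3 (robust quasi-likelihood F test, all 9 libraries in each fit, Benjamini-Hochberg adjustment over all tested genes, calls at an adjusted p under 0.05). The biological coefficient of variation was 34.4%. Replicate numbers were tested with the treatment as a term. Tables and figures were made with pandas 2.3.3 and matplotlib 3.10.9. The tests were tried on simulated data.

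Same-numbered SA and mock libraries deviated from their group means together (r = 0.154, 0.164 and 0.130 across genes, against -0.187 to 0.0435 over all pairs of different numbers), so the number was taken to pair them, from the data and not from a label. Same-numbered Zip1 libraries deviated together as well, with r of 0.0745 to 0.160 against mock and 0.0759 to 0.157 against SA. The deviations of a group's 3 libraries cancel out. A positive r of same-numbered pairs therefore pulls the r of other pairs down, and the contrast between them is partly built in. The block is an alternative for each treatment comparison. All 9 genes are named; of the other lists, made from words in the deposited descriptions, the called genes and, where none was called, those with the most counts could be named, and for the LHY and the PRR gene with the highest mean normalised count, not scaled by length, the 3 genes with the highest Pearson r among those with a mean of at least 50 normalised counts. The 9 genes and the lists were chosen with earlier results of these data known. Alternatives were DESeq2 size factors, no filter, the DESeq2 1.42.0 test, no robust estimation, each library left out, the replicate block, the compared groups alone, no treatment term and, added after seeing the data, all libraries of a number left out.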

Additional observations from a re-analysis of the deposited data

How the results depend on the processing

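The numbers of clock genes called kept to 0 in Zip1 against mock under every alternative. With the replicate block, SA against mock and Zip1 against SA each called 1 of 9, the LHY gene on chromosome 4 (Zip1 against SA -0.87, adjusted p = 0.0128, edgeR, lower in 3 of 3 same-numbered pairs). These calls share their SA libraries and are not independent. Same-numbered Zip1 libraries also deviated together with those of the other groups (r of 0.0745 to 0.160 against mock and 0.0759 to 0.157 against SA). For Zip1 the block moved the count of all genes called from 204 to 574 against mock and from 949 to 1553 against SA. For SA against mock it moved from 1436 to 2220. DESeq2 called 2449 genes between SA and mock, 930 between Zip1 and mock and 2037 between Zip1 and SA. The block changed no other call of the 9. Leaving out single libraries gave 0 calls among the 9 in the 3 treatment comparisons, as did leaving out all libraries of a number. With single libraries left out, 839 to 1414 of all genes were called in SA against mock and 456 to 960 in Zip1 against SA. Zip1 against mock called 0 to 243, with 0 of all genes called without mock 1. With the number 1, 2 or 3 left out it called 0, 2 and 89 of all genes. Fits that call 0 of all genes cannot tell about the 9. For the replicate numbers, DESeq2 called 5 of 9 and 1222 genes, and a model with no treatment term 0 of 9 and 0 of all genes. Leaving out single libraries gave 0 to 2 of 9, where 1 to 60 of all genes were called. The adjusted p of the LHY gene ran from 1.88e-17 (DESeq2) to 0.669 (no treatment term). The cause of these differences was not tested. Of the log2 fold changes, Zip1 against SA of Zm00001eb415770 turned to 0.040 with the block. With single libraries left out, SA against mock ranged from -0.20 to 0.55 for Zm00001eb112080, -0.21 to 0.63 for Zm00001eb331630 and -0.067 to 0.28 for Zm00001eb319590. Zip1 against mock ranged from -0.60 to 0.22 for Zm00001eb172450 and -0.20 to 0.40 for Zm00001eb228670. Zip1 against SA ranged from -0.27 to 0.24 for Zm00001eb415770, -0.48 to 0.081 for Zm00001eb415760, -0.19 to 0.18 for Zm00001eb397240 and -0.35 to 0.14 for Zm00001eb247330. Without a change of sign, SA against mock ranged from 0.28 to 1.13 for Zm00001eb172450. Replicate 2 against 1 ranged from -0.54 to 0.35 for Zm00001eb112080. Replicate 3 against 1 ranged from -0.44 to 0.082 for Zm00001eb415770, -0.15 to 0.35 for Zm00001eb415760 and -0.34 to 0.056 for Zm00001eb247330. Replicate 3 against 2 ranged from -0.18 to 0.15 for Zm00001eb397240. With all libraries of a number left out, the sign turned for SA against mock of Zm00001eb331630 (-0.098 without number 3), Zip1 against mock of Zm00001eb172450 (0.011 without number 1) and Zm00001eb228670 (-0.13 without number 3), and Zip1 against SA of Zm00001eb415770 (0.26 without number 1) and Zm00001eb397240 (0.055 without number 1, 0.10 without number 2). The PRR37 genes, with the fewest counts, set the widest standard errors, and 3 libraries a group limit what differences could be called.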
